A study of Danio rerio with 12 samples.

Results

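The genes mespba, tbx16l and FOXC1, which encode transcription factors of the paraxial mesoderm, were taken by name from the series' table. All 3 were found, each on 1 row, of 5134 rows in all. The rows were ENSDARG00000030347 for mespba, ENSDARG00000006939 for tbx16l and ENSDARG00000091481 for FOXC1. The last carries an upper-case symbol with no paralogue letter. The name table lists foxc1b under another identifier, and no row of the series' table was found for that name. The row analysed is called FOXC1 throughout.

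RNA from zebrafish embryos had been hybridised to 12 single-colour NimbleGen arrays, 4 for each of 3 groups. Controls are labelled wild-type, with no injection named. Sema6A morphants had received an antisense morpholino, which blocks an RNA's translation or splicing, against Semaphorin6A at the 1-cell stage, and plexinA2 morphants one against PlexinA2, a semaphorin receptor. All 3 groups were of the rx3:GFP line, a reporter named for an eye field gene, and the labels name no mutant allele and no number of embryos per array. Age is given as 18 hours after fertilisation and stage as 18 somites, reached at 25 °C. Somite numbers of single arrays are not given in the sources used here, and the rows of sema6a and plxna2 were not analysed here.

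Paraxial mesoderm lies on both sides of the neural tube and notochord. Its unsegmented posterior part, the presomitic mesoderm, is fed from the tail bud and divides at its anterior end into somites, under a clock of oscillating Notch targets. Somite cells then become muscle, skeleton and dermis, so that presomitic transcripts are early marks and muscle transcripts late marks of the same tissue. The T-box gene tbx16l, called tbx6 in older work, is expressed in tail bud and presomitic mesoderm. The basic helix-loop-helix gene mespba is switched on in the anterior presomitic mesoderm, in the anterior part of the somite about to form. Zebrafish forkhead genes of the FOXC1 kind act in the formation of somites, and are also expressed in head mesenchyme and around the eye.

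All 3 genes were lower on average in both morphant groups than in controls, by 0.32 to 0.93 on the log2 scale, and none of these differences passed the test over all rows. Of all rows, 45.1% were lower on average in sema6A and 46.6% in plexinA2 morphants. The 3 genes were chosen with earlier results of these data known. Their shared direction and their ranks among all rows are therefore descriptions. The control group was not uniform. Control replicate 4 had the lowest level of its group for each of the 3 genes, and the highest muscle gene score of all 12 arrays. With that array left out FOXC1 passed in sema6A and mespba in plexinA2 morphants. It was singled out by its low levels of these same genes, so these passes are not independent support for a change. In RNA from embryos, fewer cells of a type and less RNA per cell cannot be told apart.

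Levels are given as log2 of the deposited intensity. In the controls, tbx16l had 10.18, 10.11, 11.04 and 9.28 in replicates 1 to 4. The sema6A morphants had 10.06, 9.08, 8.47 and 9.73. The plexinA2 morphants had 10.26, 9.55, 10.16 and 9.36. The groups overlapped, with the highest value in control replicate 3 and the lowest in sema6A replicate 3. The group means of this tail bud and presomitic gene were 10.15 ± 0.72 in controls, 9.83 ± 0.45 in plexinA2 morphants and 9.33 ± 0.70 in sema6A morphants (SD, n = 4). Neighbours in this order were closer than the larger of their SDs. The range of tbx16l over the arrays, 2.58, was wider than that of 85.1% of rows.

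The control levels of mespba were 10.89, 10.97, 11.18 and 9.34 in replicates 1 to 4. Those of the sema6A morphants were 10.57, 10.25, 10.07 and 10.01. The plexinA2 morphants had 9.96, 9.82, 9.81 and 9.69. Control replicates 1 to 3 lay above every morphant array, and control replicate 4 lay below every one. The group means were 10.60 ± 0.84 in controls, 10.23 ± 0.25 in sema6A morphants and 9.82 ± 0.11 in plexinA2 morphants (SD, n = 4). Morphant arrays were thus tightly grouped, and 1 control array stood apart from the other 3. The 4 plexinA2 arrays all lay below the 4 sema6A arrays, as did those of 10.8% of all rows. The range of mespba, 1.84, was wider than that of 56.3% of rows.

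FOXC1 had 12.02, 11.78, 11.82 and 10.64 in the controls. It had 11.02, 10.29, 10.33 and 10.90 in the sema6A morphants. It had 10.96, 10.89, 11.62 and 10.69 in the plexinA2 morphants. Control replicates 1 to 3 again lay above every morphant array, and control replicate 4 lay among the morphants. The group means were 11.56 ± 0.62 in controls, 11.04 ± 0.40 in plexinA2 morphants and 10.64 ± 0.38 in sema6A morphants (SD, n = 4). Controls and plexinA2 morphants were closer than the larger of their SDs, and the morphant groups were about 1 SD apart. PlexinA2 replicate 3 was the morphant array closest to the controls for this gene. The range of FOXC1, 1.72, was wider than that of 48.6% of rows.

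**Figure D1:**
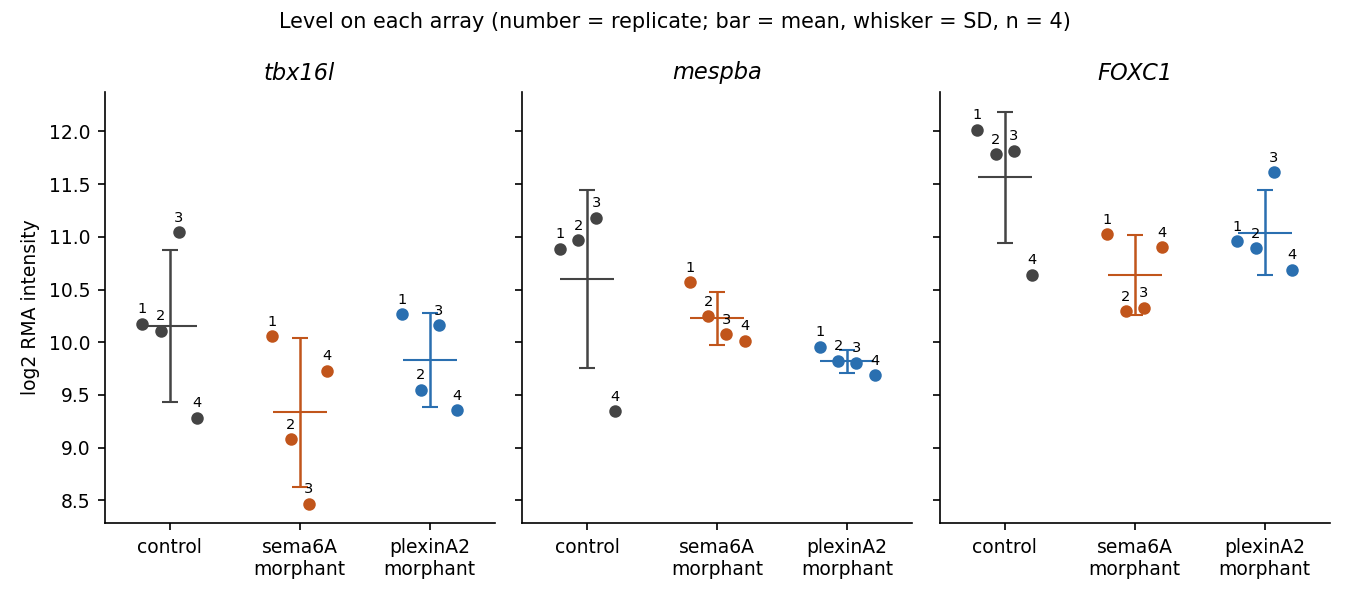
Log2 RMA intensity of tbx16l, mespba and FOXC1 on each of the 12 arrays, by group. Points are arrays with their replicate number, horizontal bars are means and whiskers are SD (n = 4). Control replicate 4 is the lowest control in all 3 panels, at 9.28, 9.34 and 10.64.

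The comparison of each morphant group with controls asks whether these transcripts differed in embryos in which Semaphorin6A or PlexinA2 was targeted. The labels name no group with a control morpholino, so effects of targeting and of injection cannot be told apart. Differences are from a limma model of all 12 arrays, with standard errors (SE), 95% intervals and p adjusted over all 5134 rows. A row counted as changed at an adjusted p under 0.05. Between sema6A morphants and controls, 0 of the 3 genes passed and 1 had an unadjusted p under 0.05. Of all rows, 3.12% passed and 20.6% had an unadjusted p under 0.05. FOXC1 had the largest difference of the 3, −0.93 ± 0.34, or 1.90-fold lower (interval −1.64 to −0.22, limma adjusted p = 0.126). For tbx16l it was −0.82 ± 0.39 (interval −1.65 to 0.01, limma adjusted p = 0.248). For mespba it was −0.37 ± 0.35 (interval −1.10 to 0.36, limma adjusted p = 0.590). Of all rows, 5.22% had a lower difference than FOXC1, 7.07% a lower one than tbx16l and 22.1% a lower one than mespba.

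Between plexinA2 morphants and controls, 0 of the 3 passed in limma and 1 had an unadjusted p under 0.05, against 2.86% and 17.2% of all rows. Here mespba had the largest difference, −0.78 ± 0.35, or 1.71-fold lower (interval −1.51 to −0.05, limma adjusted p = 0.264). FOXC1 differed by −0.53 ± 0.34 (interval −1.23 to 0.18, limma adjusted p = 0.447). For tbx16l the difference was −0.32 ± 0.39 (interval −1.15 to 0.51, limma adjusted p = 0.717). Of all rows, 3.49% had a lower difference than mespba, 11.3% a lower one than FOXC1 and 22.6% a lower one than tbx16l. Both morphant comparisons share the 4 control arrays, so their directions are not independent of each other.

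These calls depended on control replicate 4, whose omission raises the control means and narrows their spread by construction. Without it, the FOXC1 difference in sema6A morphants was −1.24 ± 0.31, or 2.35-fold lower (limma adjusted p = 0.0406), where 3.54% of rows passed and 1.46% passed as lower. In plexinA2 morphants that of mespba was −1.19 ± 0.27, or 2.29-fold lower (limma adjusted p = 0.0163), where 6.35% of rows passed and 1.09% passed as lower. The other member differences did not pass without that array. In sema6A morphants they were −1.11 for tbx16l (limma adjusted p = 0.117) and −0.79 for mespba (limma adjusted p = 0.103). In plexinA2 morphants they were −0.61 for tbx16l (limma adjusted p = 0.358) and −0.83 for FOXC1 (limma adjusted p = 0.111).

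Single arrays also made differences smaller. Without control replicate 3, which had the highest tbx16l and mespba of its group, the tbx16l difference was −0.52 in sema6A and −0.02 in plexinA2 morphants, and the mespba difference in sema6A morphants was −0.17. The latter was −0.24 without control replicate 2. Without sema6A replicate 3, tbx16l differed by −0.53 in sema6A morphants, and without plexinA2 replicate 4 by −0.16 in plexinA2 morphants. All of these values kept their sign.

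Between the morphant groups, 0 of the 3 genes passed in limma and none had an unadjusted p under 0.05, against 1.71% and 26.8% of all rows. The plexinA2 minus sema6A difference was −0.41 ± 0.35 for mespba (interval −1.14 to 0.32, limma adjusted p = 0.449). It was 0.50 ± 0.39 for tbx16l (interval −0.33 to 1.33, limma adjusted p = 0.416) and 0.40 ± 0.34 for FOXC1 (interval −0.30 to 1.11, limma adjusted p = 0.441). On average mespba was therefore lower in plexinA2 than in sema6A morphants while tbx16l and FOXC1 were higher. The intervals of all 3 differences reach both signs. The tbx16l difference was 0.21 without sema6A replicate 3, and that of FOXC1 was 0.21 without plexinA2 replicate 3. Without control replicate 4, whose omission alters only the shared spread here, 0 of the 3 passed against 4.83% of rows.

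**Figure D2:**
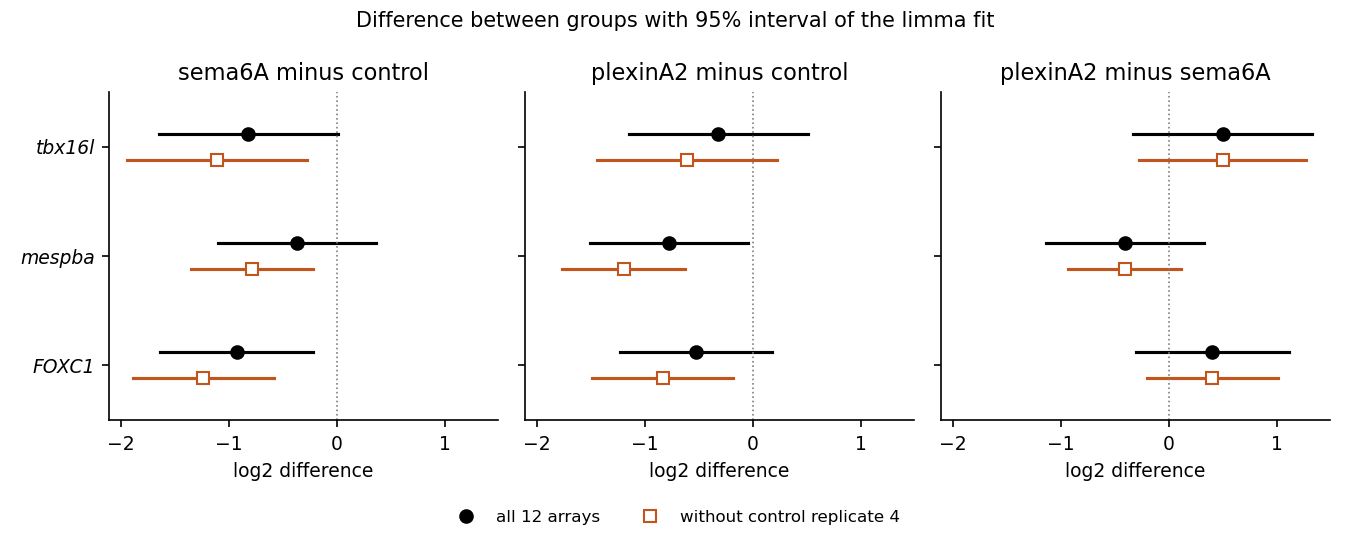
Log2 difference between groups (x axis) for tbx16l, mespba and FOXC1, with 95% intervals of the limma fit. Filled circles use all 12 arrays and open squares leave out control replicate 4. The squares of both morphant comparisons lie further below 0 than the circles, at −1.24 for FOXC1 in sema6A and −1.19 for mespba in plexinA2 morphants.

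Other genes of the tissue were followed with a list of 98 names for paraxial mesoderm and segmentation, of which 36 genes were measured, the 3 included. In sema6A morphants 2 of the 36 fell, 0 rose and 34 did not pass, where 1.13% of all rows fell. An unadjusted p under 0.05 was found for 10 of the 36, against 20.6% of all rows. The list's median was −0.32, against 0.06 over all rows. The genes that fell were TCF12, a partner of tissue-specific helix-loop-helix factors, from 12.04 ± 0.22 to 10.95 ± 0.39 (SD, n = 4, limma adjusted p = 0.0387), and PAX9, a sclerotome gene, from 8.28 ± 0.28 to 7.02 ± 0.62 (limma adjusted p = 0.0331). When single arrays were left out, TCF12 no longer passed in 9 of 12 fits and PAX9 in 7 (limma adjusted p up to 0.131 and 0.0825), and both still passed without control replicate 4. PAX3, expressed in the dermomyotome, differed by −1.03 ± 0.29 (SE, limma adjusted p = 0.0592) and FN1, the gene of the fibronectin laid down at somite boundaries, by −1.06 ± 0.34 (limma adjusted p = 0.0845). The Notch feedback gene NRARP (−0.82) and the mesenchymal gene twist2 (−0.77) did not pass either.

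In plexinA2 morphants 0 of the 36 genes passed in limma, against 2.86% of all rows. An unadjusted p under 0.05 was found for 2 of the 36, against 17.2% of all rows. The list's median was −0.18, against 0.04 over all rows. WNT3A, a tail bud signal, differed by 0.97 ± 0.37 (SE, limma adjusted p = 0.190). The receptor gene NOTCH1 differed by 0.61 and SP5, a Wnt target, by 0.56. Between the morphants 1 of the 36 genes passed, TCF12, with 12.25 ± 0.23 in plexinA2 against 10.95 ± 0.39 in sema6A morphants (SD, n = 4, limma adjusted p = 0.0286), where 1.27% of all rows passed as higher. That call was lost in 6 of the 12 fits without 1 array. Without control replicate 4, 4 of the 36 passed as lower in sema6A morphants, TCF12, PAX9, FOXC1 and mespaa, against 1.46% of all rows. In plexinA2 morphants 1 did, mespba, against 1.09% of all rows. That array had the lowest control level of FOXC1, mespaa and mespba, so its omission favours these 3 calls by construction. The list's medians without it were −0.57 in sema6A and −0.32 in plexinA2 morphants.

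Some other segmentation genes, picked after their values were seen, were also low in control replicate 4, and others of the list were high there. For mespaa, another Mesp gene of the anterior presomitic mesoderm, the level in that array was 6.70, the lowest of the control group, whose highest was 10.16. Its mean was 8.32 ± 0.63 in sema6A and 8.84 ± 0.31 in plexinA2 morphants (SD, n = 4). The co-repressor gene ripply1, which acts at the forming somite border, had 10.12 in that array against a control mean of 11.12 ± 0.83. Its relative ripply2 had 9.51 against 10.99 ± 1.42, and the T-box gene tbx16, or spadetail, had 11.17 against 12.23 ± 1.04. Of the clock genes, her1 had 10.81 against 11.48 ± 0.72 and her7 had 7.64 against 7.98 ± 1.00, its lowest control being another array at 6.72. Over the list, control replicate 4 was the lowest control for 17 of 36 genes, or 47.2%, against 21.4% of all rows. The 17 include mespba, tbx16l and FOXC1, whose low levels singled out this array, so the count is partly fixed by that choice. The same array was the highest control for 8 of the 36, against 28.0% of all rows. Among the 8 were NOTCH1 (11.75), PAX3 (9.06), NRARP (10.88) and WNT3A (10.31). For pcdh8 (9.87), LEF1 (10.26), her12 (9.54) and MEOX2 (7.46) control replicate 4 was not the lowest control.

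**Figure D3:**
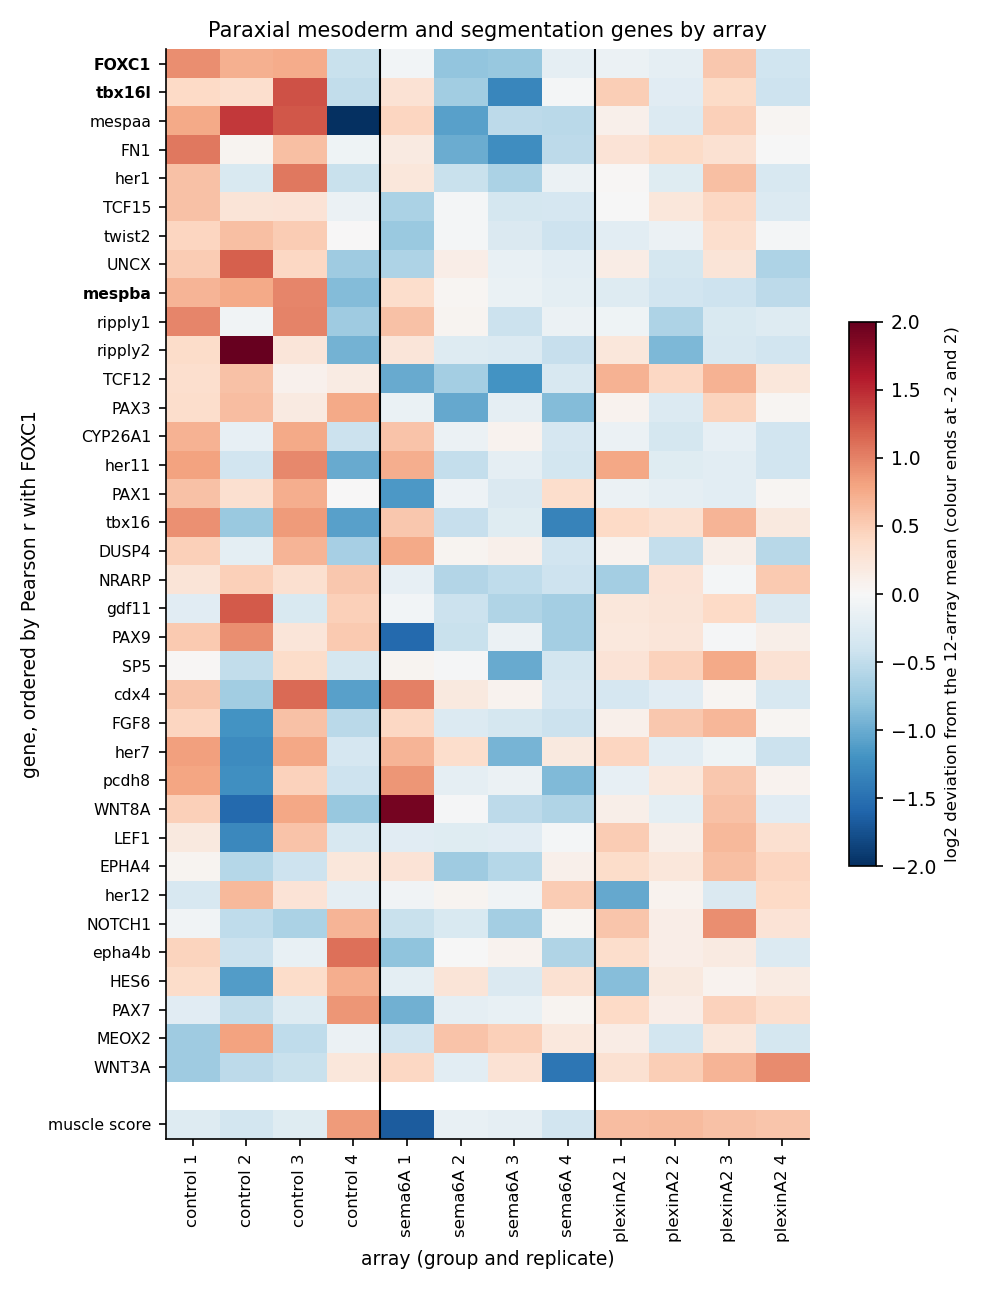
Deviation of each of the 36 paraxial mesoderm and segmentation genes from its 12-array mean (colour, log2 scale), with genes in the order of their Pearson r with FOXC1 and the muscle score in the bottom row. Among the upper genes FOXC1, tbx16l, mespaa and mespba are blue in control replicate 4, where the muscle score is 0.86, and TCF12 and PAX3 are red there.

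Levels of tbx16l and FOXC1 followed each other over the arrays. Pearson's r was 0.83 and Spearman's rho 0.90 over 12 arrays (permutation p = 0.00064 and 0.00016, adjusted over 10 relations 0.00607 and 0.0016). With group means taken out, r was 0.77 (exact permutation p = 0.0177, adjusted 0.0355), and 0.67 without control replicate 4 as well (exact permutation p = 0.0686, adjusted 0.151). When sema6A replicate 1 was also left out, it was 0.57 (exact permutation p = 0.155, adjusted 0.342). Without the 2 arrays farthest from the median of FOXC1, control replicates 1 and 3, the pooled r was 0.82 (permutation p = 0.00301, adjusted 0.0301). FOXC1 ranked 9th of 5133 rows by its r with tbx16l, and tbx16l ranked 13th with FOXC1.

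For mespba the relations to the other two were as follows, and whether they differ from that of tbx16l with FOXC1 was not tested. With FOXC1 it had r = 0.66 (permutation p = 0.0201, adjusted 0.0401) and rho = 0.55 (permutation p = 0.0717, adjusted 0.143). Without the 2 arrays farthest in FOXC1, control replicates 1 and 3, r was 0.41 (permutation p = 0.236, adjusted 0.393). The pooled relation thus did not pass without them. Their omission also narrows the range of FOXC1, so how far the relation rests on them cannot be told from this value. With group means taken out it was 0.75 (exact permutation p = 0.0741, adjusted 0.0808), and 0.24 without control replicate 4 as well (exact permutation p = 0.596). When sema6A replicate 1 was also left out, it was −0.20 (exact permutation p = 0.5995). For mespba with tbx16l r was 0.58 (permutation p = 0.0448, adjusted 0.0747) and rho 0.42 (permutation p = 0.178). Without the 2 arrays farthest in tbx16l, sema6A replicate 3 and control replicate 3, r was 0.51 (permutation p = 0.131). Once group means were taken out it was 0.69 (exact permutation p = 0.0262, adjusted 0.0436), and 0.66 without control replicate 4 as well (exact permutation p = 0.0752, adjusted 0.151). Without sema6A replicate 1 too, it was 0.49 (exact permutation p = 0.216, adjusted 0.342). FOXC1 ranked 173rd and tbx16l 304th of 5133 rows by r with mespba.

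The list's remaining genes were summed up as 1 score. Their mean deviation per array correlated with tbx16l at r = 0.81 and rho = 0.85 (permutation p = 0.00126 and 0.00073, adjusted 0.00607 and 0.00365). With FOXC1 r was 0.81 and rho 0.78 (permutation p = 0.00182 and 0.0038, adjusted 0.00607 and 0.0127). Neither passed after adjustment without the 2 arrays farthest in that mean, control replicates 1 and 3 (r = 0.72 and 0.66, permutation p = 0.0174 and 0.0395, adjusted 0.0872 and 0.0987). For mespba r was 0.46 and rho 0.25 (permutation p = 0.130 and 0.432), and without those arrays r was −0.02. Within groups, that is with group means taken out, r was 0.70 for mespba, 0.74 for tbx16l and 0.76 for FOXC1 (exact permutation p = 0.0157, 0.0114 and 0.00702, each adjusted to 0.0355). Without control replicate 4 as well these were 0.59, 0.63 and 0.61 (exact permutation p = 0.105, 0.0642 and 0.0373, adjusted 0.175, 0.151 and 0.151). Without sema6A replicate 1 too, they were 0.33, 0.49 and 0.48 (exact permutation p = 0.506, 0.181 and 0.108). Single genes of the list differed, as a description over 12 arrays. High values were those of her1 with tbx16l (0.87) and FOXC1 (0.79). For mespaa r was 0.81 with FOXC1 and 0.77 with mespba, and for ripply1 it was 0.84 with mespba. Others were weak or negative. With FOXC1, her7 had 0.25 and her12 0.05. With mespba, PAX7 had −0.78, NOTCH1 −0.73 and WNT3A −0.50, and MEOX2 had −0.385 with tbx16l.

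The rows with a symbol most like each gene, by Pearson's r of log2 levels over the 12 arrays, were mostly outside the list. For tbx16l they were KLF11 (0.90), BACH1 (0.89), snapc1b (0.87), her1 (0.87) and otx2a (0.85). For mespba they were zp3b (0.91), rfwd3 (0.91), RHOV (0.91), anxa2b (0.89) and ELAVL2 (0.88). For FOXC1 they were TMEM67 (0.95), otx2a (0.94), srbd1 (0.92), lft1 (0.91) and METAP1D (0.89). The homeobox gene otx2a, of the head, stood on both the tbx16l and the FOXC1 list, and her1 was the 1 gene of the segmentation list among them. These values come from the same 12 arrays and are descriptions.

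The muscle genes give the late side of a stage reading. A list of 141 names for the sarcomere, excitation and energy supply of muscle gave 53 measured genes. The list was not restricted to muscle of the somites, and also holds heart genes such as MYL7. The muscle score of an array is the mean deviation of the 53 genes from their 12-array means, on the log2 scale. The score was −0.26, −0.36, −0.24 and 0.86 in control replicates 1 to 4. It was −1.67, −0.15, −0.17 and −0.39 in the sema6A morphants and 0.61, 0.63, 0.58 and 0.56 in the plexinA2 morphants. Control replicate 4 thus lay above the plexinA2 arrays and far above the other controls, and sema6A replicate 1 lay far below all others. Control replicate 4 was the highest control for 40 of the 53 muscle genes, or 75.5%, against 28.0% of all rows.

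In controls and sema6A morphants, the array that stood apart in muscle genes stood at the other end for the 3 genes. Control replicate 4 had the highest muscle score and the lowest tbx16l, mespba and FOXC1 of its group. Sema6A replicate 1 had the lowest muscle score and the highest tbx16l (10.06), mespba (10.57) and FOXC1 (11.02) of its group. Scores of other tissues also stood high or low in these arrays. Control replicate 4 had 0.78 for 20 blood, endothelium and lateral mesoderm genes and 0.62 for 7 notochord genes, the highest of its group. Sema6A replicate 1 had −1.30 and −0.75 for those lists and −0.73 for 20 nervous system genes, the lowest of its group. The part of these differences in the levels of the 3 genes was not tested.

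Over all 12 arrays mespba was lower where the muscle score was higher. Pearson's r was −0.65 (permutation p = 0.0184, adjusted 0.0401) and rho −0.74 (permutation p = 0.00774, adjusted 0.0194), and 182 of 5134 rows had a lower r. The adjusted p of r was above 0.05 in 8 of the 12 sets without 1 array, with r from −0.78 to −0.58, the weakest being that without control replicate 4 (permutation p = 0.0585, adjusted 0.117). Without sema6A replicate 1 and control replicate 4, the arrays farthest in the score, r was −0.71 (permutation p = 0.0267, adjusted 0.0890). With group means taken out it was −0.77 (exact permutation p = 0.0599, adjusted 0.0749), but 0.55 when both of those arrays were also left out (exact permutation p = 0.151). Within groups the inverse relation therefore rests on these 2 arrays, and without them the pooled −0.71 reflects differences between group means. The permutations for pooled r shuffled arrays across groups, so its p does not separate group means from a relation within groups. Taken gene by gene, r with mespba was below 0 for 51 of the 53 muscle genes, against 54.3% of all rows. Its median was −0.54 and its lowest value −0.80, for the actinin gene actn2b. With tbx16l and with FOXC1, r was below 0 for 46 of the 53, against 61.3% and 60.8% of all rows (medians −0.15 and −0.16). The 53 genes make up the score, so these counts are not separate support for a relation to it.

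Neither tbx16l (r = −0.18, rho = −0.21, permutation p = 0.579 and 0.508) nor FOXC1 (r = −0.16, rho = −0.43, permutation p = 0.626 and 0.168) had a relation to the muscle score that passed over the 12 arrays. Of all rows, 33.9% and 35.4% had a lower r. With group means taken out, r was −0.69 for tbx16l (exact permutation p = 0.0808, adjusted 0.0808) and −0.73 for FOXC1 (exact permutation p = 0.0119, adjusted 0.0355). For FOXC1 it was −0.52 without control replicate 4 (exact permutation p = 0.0477, adjusted 0.151), and −0.45 without sema6A replicate 1 as well (exact permutation p = 0.240). For tbx16l it was −0.26 without both (exact permutation p = 0.622). FOXC1 was lowest on average in the sema6A morphants, where the mean score was also lowest (−0.60 ± 0.73, SD, n = 4), and the plexinA2 morphants had the highest mean score (0.60 ± 0.03). Without replicate 1 the sema6A mean was −0.24 ± 0.13 (SD, n = 3), still below the mean of all controls (−0.0005 ± 0.57, SD, n = 4). Without replicate 4 the control mean was −0.29 ± 0.07 (SD, n = 3). The order of the sema6A and control means therefore rests on sema6A replicate 1 and control replicate 4.

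**Figure D4:**
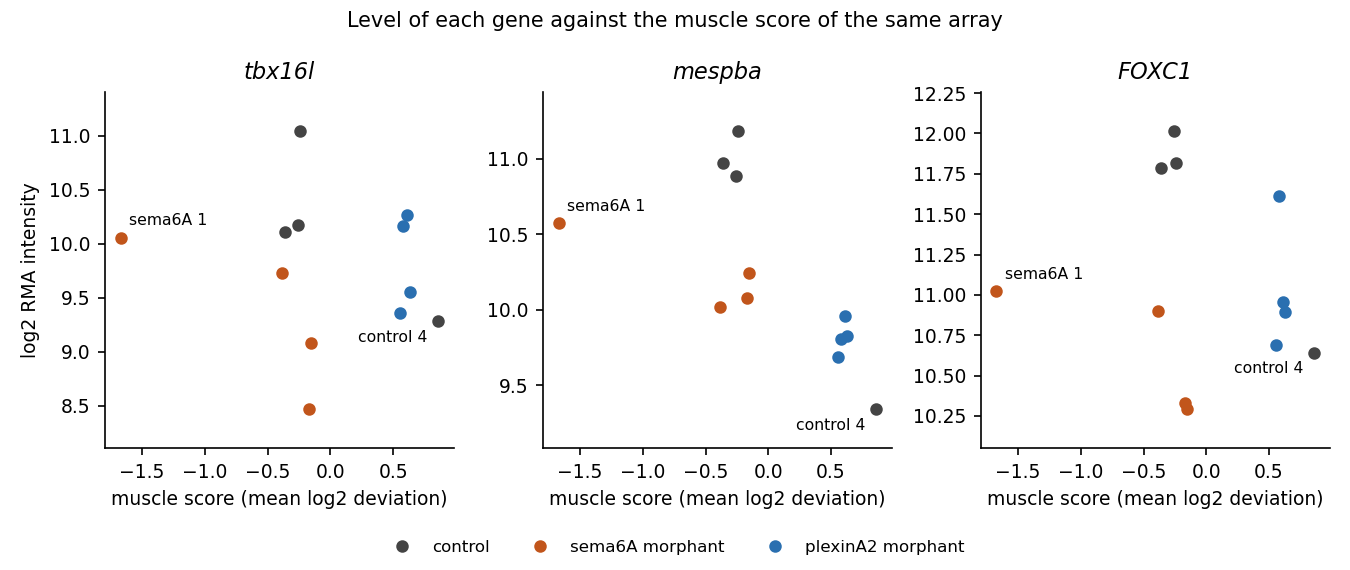
Log2 RMA intensity of tbx16l, mespba and FOXC1 (y axes) against the muscle score of the same array (x axis, mean log2 deviation of 53 genes), coloured by group. Control replicate 4 lies at the right (0.86) and sema6A replicate 1 at the left (−1.67). The mespba panel slopes down (r = −0.65), while in the other panels the sema6A arrays with scores of −0.15 and −0.17 hold the lowest values.

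The muscle genes themselves gave few calls against controls. In each morphant comparison with controls 1 of the 53 rose and 0 fell, where 1.99% of all rows rose in sema6A and 2.61% in plexinA2 morphants. The list's medians were −0.64 in sema6A and 0.54 in plexinA2 morphants, and −0.33 and 0.85 without control replicate 4. The gene that rose in both was nebl, which encodes nebulette (2.00 ± 0.41 and 1.79 ± 0.41, SE, limma adjusted p = 0.0101 and 0.0196). Its r was −0.15 with mespba and −0.25 with the muscle score. Its call in plexinA2 morphants was lost in 4 of the 12 fits without 1 array. Without control replicate 4, 9 of 53 passed as higher in plexinA2 morphants than in controls, against 5.26% of all rows. That array was the highest control for 40 of the 53 muscle genes, so leaving it out lowers most control means by construction. These calls are therefore not independent support for a rise. Between the morphants 5 of 53 passed as higher in plexinA2, against 1.27% of all rows, with a median of 1.11. On average 50 of the 53 were higher in plexinA2 and 3 lower, where 50.2% of all rows were lower. An unadjusted p under 0.05 was found for 38 of the 53, against 26.8% of all rows. The 53 share the same arrays, so these 2 counts are descriptions. Without control replicate 4, whose omission alters only the shared spread here, 15 of 53 passed, against 3.31% of all rows. That array lay far above the other controls in muscle genes, so leaving it out narrows the spread of many of them by construction. The count of 15 is therefore not independent support for a difference. With all arrays the 5 were XIRP2 (2.90 ± 0.52, limma adjusted p = 0.0139), a gene of muscle attachment sites, the calcium release channel gene RYR1 (2.47), the thin filament gene NEB (2.20), the glycogen phosphorylase gene PYGM (2.47) and the acetylcholine receptor gene CHRND (1.52). In this order, the r of the 5 with mespba was −0.75, −0.78, −0.73, −0.74 and −0.35. Each of these calls was lost in 3 to 7 of the 12 fits without 1 array.

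Myogenic factors, which specify muscle, differed in their relations to the 3 genes and to the muscle score. Of 16 measured, 0 passed in either comparison with controls in limma, against 3.12% of all rows in sema6A and 2.86% in plexinA2 morphants. In sema6A morphants 4 of the 16 had an unadjusted p under 0.05, against 20.6% of all rows. In plexinA2 morphants 1 did, against 17.2% of all rows. The list's medians were −0.42 in sema6A and 0.13 in plexinA2 morphants. All 16 were lower on average in sema6A morphants than in controls, and 14 without control replicate 4, against 45.1% and 43.5% of all rows. In plexinA2 morphants 6 were, against 46.6%. Between the morphants 14 were higher in plexinA2 and 2 lower, where 50.2% of all rows were lower. Here 9 of the 16 had an unadjusted p under 0.05, against 26.8% of all rows. The 16 share the same arrays, so these counts are descriptions. MYF5, which starts the muscle programme and is already expressed in presomitic mesoderm, had r of 0.79 with FOXC1, 0.75 with mespba, 0.57 with tbx16l and −0.29 with the muscle score. Its level in control replicate 4 was 11.56, the lowest of a group with a mean of 12.83 ± 0.91 (SD, n = 4). PAX7, a gene of muscle precursors that also marks neural tissue, had r of −0.78 with mespba and 0.92 with the score, and the splicing factor gene rbfox1l had −0.71 and 0.93. MEF2D, a MADS-box factor of differentiating muscle, had −0.56 and 0.83. It passed as higher in plexinA2 than in sema6A morphants (1.22 ± 0.31, SE, limma adjusted p = 0.0499), as 1 of the 16, against 1.27% of all rows. That call was lost in 8 of the 12 fits without 1 array. These r values are descriptions over 12 arrays.

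Of the other lists, p53 response genes separated morphants from controls. Of 17 measured, 10 rose in sema6A and 11 in plexinA2 morphants, against 1.99% and 2.61% of all rows, with PHLDA3 (3.64 and 3.57) and casp8 (3.55 and 3.50) having the smallest p. Their score was −1.28 in control replicate 4, within the −1.33 to −0.89 of all controls, so that array stood with its group here while it stood apart for mespba and FOXC1. PHLDA3 had r of −0.61 with FOXC1 and −0.47 with mespba over the arrays. Among nervous system genes 3 of 20 fell in sema6A morphants, and among blood and endothelium genes 4 of 20, against 1.13% of all rows. In those 2 lists 0 passed between plexinA2 morphants and controls, against 2.86% of all rows. Between the morphants 2 of 20 blood and endothelium genes and 1 of 20 nervous system genes passed as higher in plexinA2. Of all rows, 1.27% did. The calls of hbae1.3 and MYT1 among them were lost in 5 and 6 of the 12 fits without 1 array. Of 7 notochord and 4 epidermis genes 0 passed in limma in any comparison, where 3.12%, 2.86% and 1.71% of all rows passed. Without control replicate 4, the notochord gene LAMB1 passed as higher in plexinA2 morphants than in controls and than in sema6A morphants. Of all rows, 5.26% and 3.31% did. That array had the highest control level of LAMB1 (9.69), so its omission lowers the control mean and narrows the shared spread by construction. These calls are therefore not independent support for a difference.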

How the data were processed

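What the authors deposited is an intensity on a linear scale for each gene identifier and array. RMA is named without a version, per the submitters' processing notes. It compresses differences among dim probes and removes shifts shared by all genes. The array's genome build was not found in the labels, and no coordinates are printed. A gene name table gave symbols for 4349 of 5134 rows.

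Log2 values, without a pseudocount, entered limma 3.58.1 (R 4.3.3) with group as the only term, two-sided, with Benjamini-Hochberg adjustment. The fit was tested on simulated data. Replicates are labelled as biological and nothing says that they came from separate clutches, so p-values measure only the spread between these samples, which may be technical. The number of arrays limits the precision. Array medians lay between 608 and 708. The mean rank correlation with the other arrays was lowest for control replicate 2 (0.835) and sema6A replicate 1 (0.876). No batch is given in the labels. Same-numbered arrays were checked for pairing, and the numbers were not taken to pair them.

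Permutation p used 100000 resamples, or all 13824 orders within groups, and fewer where arrays were left out. The 100000 resamples moved arrays across groups, so pooled r and its p also take in differences between group means. Of 448 names on 8 lists 196 were measured, matched exactly, by case or without the paralogue letter, with the brightest row where a symbol had several. Named genes were the members, the 5 rows most like each, measured myogenic factors, and the genes of smallest p in any comparison, up to 10 paraxial, 8 muscle and 2 of each other list. Members and lists were chosen with earlier results of these data known. The alternatives were other normalizations and filters, array weights, blocks and arrays left out. Those that leave out control replicate 4 for list medians, and the relations with the list's remaining genes, were chosen after seeing the data.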

Additional observations from a re-analysis of the deposited data

Results flagged for a closer look

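The 3 genes and 8 list scores in each group made 33 sets of 4 arrays. In 7 of them the gap between the highest or lowest array and its neighbour, divided by the group's range, was above Dixon's 95% critical value. Chance gives about 1 in 20 for a single set. The 33 sets share the same arrays, and some share genes, so they are not independent and this rate is no test of the 7. All 7 fall on control replicate 4 or sema6A replicate 1. Control replicate 4 was low for mespba (9.34) and FOXC1 (10.64), and high for the muscle score (0.86) and the notochord score (0.62). Sema6A replicate 1 was low for the muscle score (−1.67), the myogenic factor score (−0.72) and the blood, endothelium and lateral mesoderm score (−1.30). For tbx16l control replicate 4 was the lowest control at 9.28 without reaching that value.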

How the results depend on the processing

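None of the 9 differences of the 3 genes changed sign in the 20 alternatives to each. With the replicate number as a block none passed, and 144 rows passed between the morphants in place of 88. Same-numbered arrays deviated together in some pairs only (r of −0.24 to 0.36). Array weights called all 6 differences from controls, at −0.68 for mespba, −1.36 for tbx16l and −1.41 for FOXC1 in sema6A and −1.11, −0.81 and −0.95 in plexinA2 morphants. They also called 1407, 1629 and 2273 rows in the 3 comparisons, in place of 160, 147 and 88. The weights were 0.158 and 0.326 for control replicates 2 and 4, 0.308 for sema6A replicate 1 and 4.82 for plexinA2 replicate 4. Control replicate 4 was the lowest control and sema6A replicate 1 the highest sema6A array for the 3 genes. The low weight of control replicate 4 favours all 6 calls, and that of sema6A replicate 1 those in sema6A morphants. PlexinA2 replicate 4, of high weight, was the lowest plexinA2 array for the 3 genes, which favours the calls in plexinA2 morphants. The 6 calls are therefore not independent support for a change. Fits of only the groups compared called 47 rows for sema6A against control and 743 between the morphants. Between the morphants quantile normalization called 158 and median centring 146. Without control replicate 2 and sema6A replicate 1, 275 rows passed for plexinA2 against control and 880 between the morphants.

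Leaving out 1 array at a time gave 66 to 226, 79 to 326 and 6 to 495 rows. FOXC1 was −1.24 to −0.78 in sema6A and mespba −1.19 to −0.58 in plexinA2 morphants. The r of mespba was −0.78 to −0.58 with the muscle score, 0.58 to 0.78 with FOXC1 and 0.39 to 0.68 with tbx16l. With group means taken out, r of mespba with the score (−0.77) and with FOXC1 (0.75) no longer passed, while r of FOXC1 with the score (−0.73) and of mespba with tbx16l (0.69) did. The latter also passed with quantile normalization (0.63) and median centring (0.64). With myogenic factors in place of muscle genes r was −0.42 for mespba, and 0.11 for tbx16l and 0.19 for FOXC1, with the sign turned. For mespba with FOXC1 the call was lost by rank (0.55), without control replicate 2 and sema6A replicate 1 (0.62), and in 8 of the 12 sets without 1 array (adjusted p up to 0.121). The cause was not tested.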
